A study of Sus scrofa with 22 samples.

Results

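Genes of the lysosome, its proton pump and autophagy were followed through 6 groups of pig taste tissue and taste organoids. The 47 genes were taken by name from the gene rows of the count files, of 27376 genes in 1 annotation and 29850 named genes in the other, and every one of the 47 had a row in both. By role there were 14 subunits and partners of the proton pump, 8 membrane or cholesterol-transport proteins, 14 hydrolases with their activators, and 11 genes of autophagy and its regulators.

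The lysosome is the acidic compartment in which cells break down proteins, lipids and sugars. The vacuolar ATPase, a rotary pump with a cytosolic V1 part that burns ATP and a membrane V0 part that carries protons, keeps it acidic, and cathepsins and glycosidases work at that low pH. Autophagy delivers cell contents to the lysosome inside double-membrane vesicles, and the transcription factors TFEB and TFE3 are known to switch on lysosome and autophagy genes when nutrients are short or lysosomes are stressed.

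Of the 22 libraries, 5 were foliate papillae, ridges on the edge of the tongue in which taste buds sit, from pigs 1 to 5. Another 5 were organoids at passage 1, grown from foliate cells of the same pigs. These organoids were fed LPM, a growth medium. Per the labels' protocols, LPM held EGF, FGF2, FGF10 at 100 ng/ml, R-spondin 2, noggin, SHH, Wnt3a, insulin, nicotinamide, N-acetylcysteine, forskolin, prostaglandin E2 and the small molecules CHIR99021, A-83-01, SB202190 and Y-27632. The FGF10 experiment had 3 organoid libraries in LPM and 3 in LPM without FGF10. The CQ experiment had 3 organoid libraries kept in LPM and 3 moved from LPM to the medium CQ on day 10 and harvested on day 16 or 17. The sources used here do not give the make-up of CQ, and the labels record no harvest day for the matching LPM libraries, so medium and culture age cannot be told apart. The labels call every organoid line a foliate cell line and give stem cells and mature taste cells as the cell type of all 22 libraries. The sources used here give neither age, sex nor strain of the pigs, nor whether replicates in the media experiments came from separate cultures or animals. The titles of the FGF10 experiment call its libraries biological replicates, and those of the CQ experiment give sample numbers only. The p-values of both experiments measure the spread between these libraries, which may be partly technical.

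Library totals ran from 14.67 to 27.77 M counts, lowest in CQ. Between 20256 and 21149 genes had a count in each papilla library and 17489 to 19049 in each organoid library in LPM or LPM without FGF10, but 14014 to 16005 in CQ. For genes averaging 10 to 30 counts, replicate variance divided by the mean had a median of 12.73 in CQ and 1.751 in the LPM libraries beside it, so low counts in CQ carry more scatter than counting alone gives. Levels below are CPM, the count divided by the library total in M counts, with totals scaled by edgeR's TMM factors within each comparison. A gene is called higher or lower at an adjusted p under 0.05 by edgeR's quasi-likelihood test with Benjamini-Hochberg adjustment over all genes tested.

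The order of levels was set on 1 scale over all 22 libraries, as CPM per kilobase of exon. Exon lengths were those of the annotation used outside the CQ experiment. PSAP, the precursor of the saposins that help break down sphingolipids, led all 47 genes in all 6 groups, at 239.8 CPM per kilobase in papillae, 705 in passage 1 organoids, 656 and 654 with and without FGF10, 547 in LPM of the CQ experiment and 614 in CQ. In papillae the cathepsins CTSB at 155 and CTSD at 151 CPM per kilobase followed, then the membrane glycoprotein LAMP1 at 137 and the tetraspanin CD63 at 114. In CQ the second place went to the cholesterol carrier NPC2, with 596 CPM per kilobase, and the third to the autophagy receptor SQSTM1, with 312.5. NPC2 had stood at 29.9 CPM per kilobase in papillae, 20th in the order. The last place was held by CTSL in papillae with 0.602, by GPNMB in the 4 organoid groups other than CQ with 0.0401 to 0.0958, and by CTSS in CQ with 0.0104 CPM per kilobase.

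**Figure D1:**
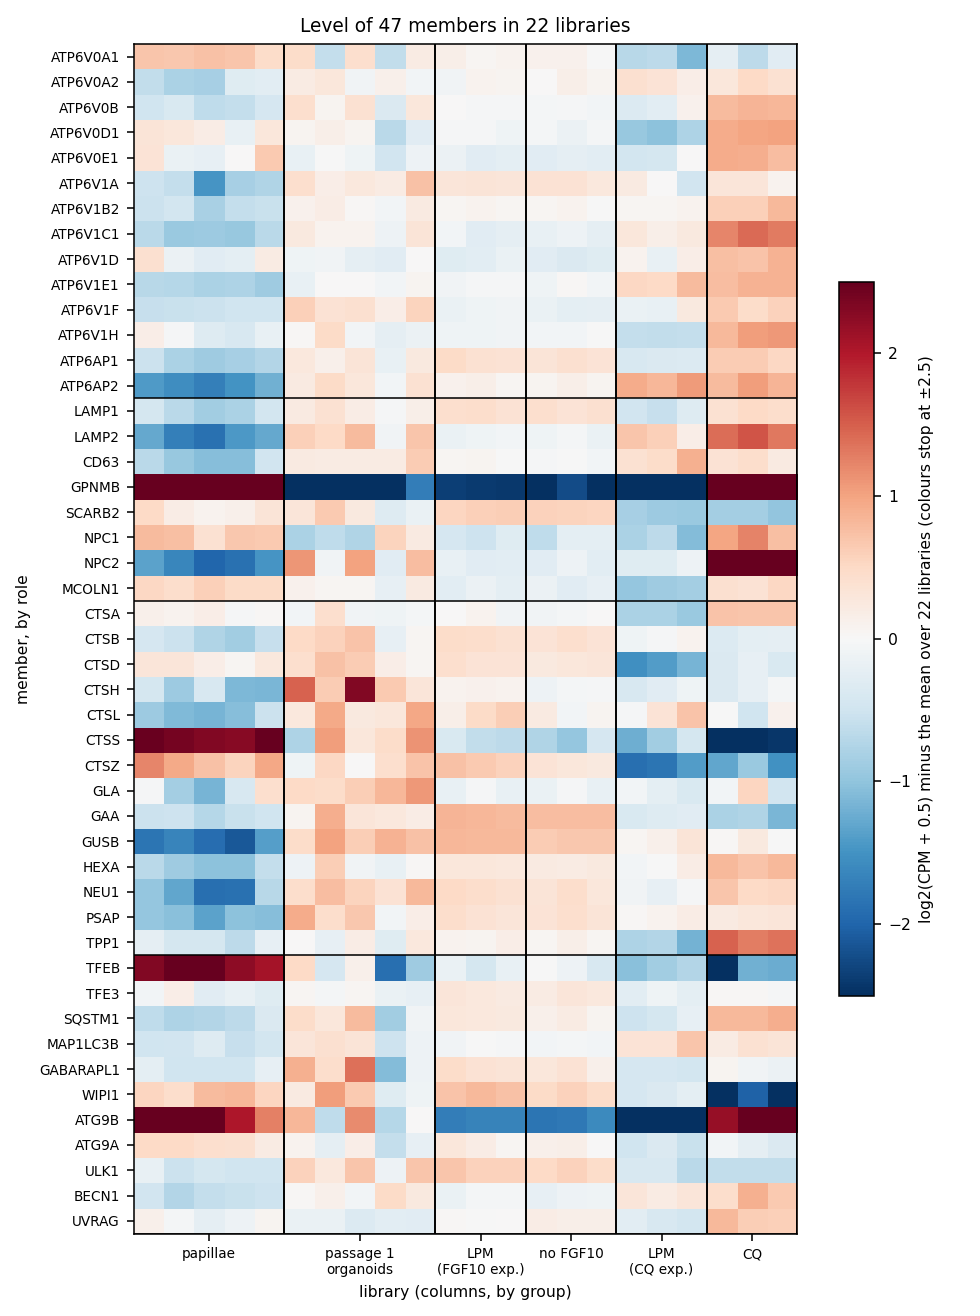
Heat map of the 47 genes (rows, by role) in the 22 libraries (columns, by group), coloured by log2(CPM + 0.5) on 1 scale minus the gene's mean over all libraries, with colours stopping at ±2.5. GPNMB, ATG9B, CTSS and TFEB are high across papillae, and GPNMB, ATG9B, NPC2 and most pump rows are high in CQ.

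Passage 1 organoids had higher levels than papillae for 28 of the 47 genes and lower levels for 9, with 10 not called. Hydrolases were most often higher, with 10 of 14 called higher, and the pump followed with 9 of 14. Autophagy genes were split, with 5 of 11 higher and 3 lower, and so were the membrane proteins, with 4 of 8 higher and 3 lower. Among all 16311 genes tested, 32.4% were called higher and 35.1% lower. At least a 2-fold rise was called for 14 of the 47 genes, beside 14.6% of all genes, and at least a 2-fold fall for 4, beside 27.1%. The median log2 fold change was 0.74 over the 47 genes and -0.01 over all genes tested. With library size alone in place of TMM scaling, the median over all genes was 0.28 and the share of calls that were higher went from 48.0% to 59.6%. Under that scaling 31 of the 47 were called higher and 4 lower, beside 6771 and 4592 of all 16311 genes. The smaller falls thus depend on the scaling.

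Markers of many cell types also differed between the same groups as the results below, and most were called lower in organoids than in papillae. Summed over 8 gland markers, papillae had 50820 to 250100 CPM and organoids 26.9 to 170 CPM, with PIP at 0 in every organoid library and 8 of 8 markers called lower. The 7 fibroblast markers, all called lower, summed to 1912 to 7046 CPM in papillae and 0.943 to 3.32 in organoids. The 15 markers of macrophages and other myeloid cells summed to 188 to 296 CPM in papillae and 22.4 to 56.4 in organoids, where C1QA, C1QB, C1QC, CD163 and VSIG4 were at 0 in all 5. Of 13 myeloid markers tested 11 were called lower and 1, AIF1, higher. Also called lower were 6 of 7 T, B and plasma cell markers tested and 5 of 6 endothelial markers. All 6 skeletal muscle markers and all 6 nerve and Schwann cell markers were lower too. Of 6 epithelial markers 4 were called higher in organoids (KRT8, KRT18, EPCAM and CDH1) and 2 lower (KRT5 and TP63). Their sum was 5200 to 7282 CPM in organoids against 7981 to 10710 in papillae, where KRT5 made up most of it. Of 7 taste cell markers, 5 were called lower in organoids and 1, KRT20, higher. The part of cell mixture in these differences was not tested, and in bulk RNA fewer cells of a type and less RNA per cell cannot be told apart. Papillae were also extracted with another kit than the organoids, which cannot be told apart from tissue.

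In the proton pump, ATP6V1A, the catalytic subunit that binds ATP, had 34.1, 32.5, 17.7, 27.9 and 29.6 CPM in papillae of pigs 1 to 5 and 68.4, 57.0, 62.4, 58.3 and 86.5 CPM in their organoids. Every organoid library lay above every papilla library, a 2.35-fold difference (log2 fold change 1.23, SE 0.18, adjusted p = 0.000122). ATP6AP1, an accessory subunit that helps assemble the pump and the pump gene with the highest mean CPM here, had 117, 98.5, 93.3, 97.4 and 105 CPM in papillae and 213, 191, 225, 153 and 213 CPM in organoids, a log2 fold change of 0.96 (SE 0.13, adjusted p = 4.67e-05). The other accessory subunit, ATP6AP2, also known as the prorenin receptor, showed the steepest rise in the pump, from 59.05 ± 8.21 to 205 ± 28.9 CPM (SD, n = 5 each), 3.47-fold (adjusted p = 1.05e-06). The remaining pump genes called higher were ATP6V0A2, ATP6V0B, ATP6V1B2, ATP6V1C1, ATP6V1E1 and ATP6V1F, with log2 fold changes from 0.68 to 1.02.

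The subunit ATP6V0D1, which joins the rotor of V0 to V1, had 98.2, 95.8, 90.6, 71.1 and 98.04 CPM in papillae and 86.4, 89.4, 88.1, 50.9 and 68.2 CPM in organoids. The groups overlapped and the gene was not called (log2 fold change -0.24, SE 0.17, adjusted p = 0.209). ATP6V0E1, ATP6V1D and ATP6V1H were not called either. The only pump gene called lower was ATP6V0A1, one of the V0 a-subunit forms, with 68.2 ± 4.497 CPM in papillae and 46.5 ± 16.55 in organoids (log2 fold change -0.55, SE 0.22, adjusted p = 0.0454). That call was lost when any 1 papilla library, or the organoid library of pig 2, 4 or 5, was left out (adjusted p 0.0549 to 0.0972), and also with library size alone (0.261) or no low-count filter (0.0711).

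Among the membrane proteins GPNMB (chromosome 9, 92037428 to 92071501, Sscrofa11.1), a glycoprotein known from pigment cells, macrophages and stressed lysosomes, had 102, 135, 115, 138 and 140 CPM in papillae. In the organoids of the same pigs it had 0.0407, 0, 0.0880, 0.239 and 0.756 CPM. These levels rest on 10864 counts over the papillae and 33 over the organoids, a 506-fold difference (log2 fold change -8.98, SE 0.58, adjusted p = 3.11e-07). The myeloid markers given above were mostly lower beside it, as were those of glands, fibroblasts, T, B and plasma cells, endothelium, muscle and nerve. The 5 melanocyte markers summed to no more than 4.201 CPM in papillae and 4.47 in organoids. The part of these cell types in the level of GPNMB was not tested.

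NPC2 (chromosome 7, 97730532 to 97740087), which hands cholesterol to NPC1 inside the lysosome, had 41.5, 33.9, 26.8, 29.3 and 38.7 CPM in papillae and 240, 103, 227, 89.8 and 191 CPM in organoids. The groups lay apart, with a 4.997-fold rise (log2 fold change 2.32, SE 0.29, adjusted p = 2.94e-05), and the organoids of pigs 2 and 4 lay well below the other organoids. Its partner NPC1, the membrane protein that exports cholesterol, was called lower, from 28.8 ± 3.003 to 16.5 ± 7.61 CPM (SD, n = 5 each), with overlapping groups (log2 fold change -0.80, SE 0.27, adjusted p = 0.0201, but 0.15 with library size alone and 0.0516 when pig 2's organoids were left out). The calcium channel MCOLN1 had 28.2, 26.7, 30.2, 27.9 and 28.4 CPM in papillae and 21.97, 20.8, 21.6, 17.3 and 24.4 in organoids. This was a fall without overlap (log2 fold change -0.41, SE 0.11, adjusted p = 0.00761), though it was not called with library size alone (adjusted p = 0.383).

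LAMP1, an abundant glycoprotein of the lysosomal membrane, had 280, 239, 210, 224 and 286 CPM in papillae and 467, 514, 459, 383 and 445 CPM in organoids, all above the papillae (log2 fold change 0.87, SE 0.13, adjusted p = 0.000148). LAMP2, its relative needed for fusion with autophagic vesicles, rose more, by 4.24-fold from 31.6 ± 5.73 CPM (adjusted p = 3.06e-06). CD63 rose 2.26-fold, and SCARB2, the receptor that carries glucocerebrosidase to lysosomes, was not called (log2 fold change -0.02, adjusted p = 0.913).

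Of the hydrolases, GUSB, a glucuronidase, showed the largest rise of the 47 genes. It had 24.7, 27.7, 23.3, 20.4 and 34.6 CPM in papillae and 127, 182, 143, 166 and 155 CPM in organoids, 5.92-fold higher (log2 fold change 2.56, SE 0.16, adjusted p = 2.68e-07). CTSH, an aminopeptidase among the cathepsins, had 62.3, 45.0, 64.6, 39.2 and 39.0 CPM in papillae and 246, 135, 447, 137 and 111 CPM in organoids. Its groups did not overlap (log2 fold change 2.10, SE 0.38, adjusted p = 0.000443), but the organoid libraries were widely spread, with pig 3 highest.

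PSAP had 675, 646, 531, 664 and 648 CPM in papillae and 2624, 1841, 2236, 1298 and 1585 CPM in organoids, 3.03-fold higher (adjusted p = 3.7e-05). CTSB, a cysteine protease, had 478, 437, 384, 358 and 435 CPM in papillae and 938, 971, 1105, 564 and 697 CPM in organoids, with no overlap and a 2.04-fold rise (adjusted p = 0.000596). CTSD, the main aspartic protease of lysosomes, had 296, 295, 274, 253 and 295 CPM against 337, 409, 397, 278 and 262. Its groups overlapped and it was not called (log2 fold change 0.25, SE 0.15, adjusted p = 0.153). NEU1, GLA, GAA, HEXA and TPP1 were called higher, from 0.44 on the log2 scale for TPP1 to 1.93 for the sialidase NEU1, and CTSA, the protein that protects NEU1, was not called (log2 fold change -0.01).

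The cathepsins CTSS and CTSZ were called lower. CTSS, a protease of antigen-presenting cells, had 16.4 ± 1.695 CPM in papillae and 4.32 ± 2.12 in organoids (SD, n = 5 each). This was a fall without overlap (log2 fold change -1.92, SE 0.34, adjusted p = 0.000418), beside falls of the myeloid and other cell type markers given above. CTSZ fell by 0.52 on the log2 scale with overlapping groups (adjusted p = 0.023), and the call was lost without papilla 1 or 2 or the organoids of pig 1 or 3 (adjusted p 0.05 to 0.0635). Scaling by library size alone also ended it (adjusted p = 0.316). The gene row named CTSL held only 0.609 to 4.43 CPM in these libraries, with a 4.08-fold rise (adjusted p = 0.000132). The RefSeq gene table for Sscrofa11.1 lists CTSL as another name of the row CTSV, on chromosome 10 from 25202360 to 25208058, while the row CTSL lies on chromosome 10 from 27668523 to 27674705. CTSV, looked at after its values were seen, had 167 ± 10.2 CPM in papillae and 711 ± 269 in organoids, 4.26-fold higher (adjusted p = 3.36e-05). Rows that share a name in this way, and cathepsins as a family, are uncertain in their assignment.

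TFEB (chromosome 7, 36870240 to 36920887), a main regulator of lysosome genes, had 45.8, 51.9, 61.0, 44.2 and 39.6 CPM in papillae and 13.2, 6.68, 10.2, 2.11 and 4.80 CPM in organoids. The groups were far apart, with a 6.58-fold fall (log2 fold change -2.72, SE 0.40, adjusted p = 0.000105). Its relative TFE3 had 44.8, 52.9, 39.2, 42.4 and 39.1 CPM in papillae and 50.6, 46.9, 51.7, 43.2 and 42.9 in organoids, with overlap and no call (log2 fold change 0.11, SE 0.11, adjusted p = 0.417). MITF, another gene of the family, had 6.98 ± 0.937 CPM in papillae and 6.06 ± 1.87 in organoids, with no call (adjusted p = 0.444).

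ATG9B (chromosome 18, 6200246 to 6208988), one of the ATG9 scramblases that supply membrane to forming autophagosomes, had 75.4, 72.4, 61.7, 41.9 and 24.7 CPM in papillae and 18.6, 6.31, 24.2, 5.93 and 10.5 CPM in organoids. The lowest papilla, pig 5, lay just above the highest organoid, pig 3, and the fall was 4.22-fold (log2 fold change -2.08, SE 0.44, adjusted p = 0.00137). The other scramblase, ATG9A, fell by 0.49 on the log2 scale (adjusted p = 0.0105, and 0.213 with library size alone). SQSTM1, the receptor p62 that links ubiquitin-tagged cargo to autophagosomes, had 226, 206, 212, 226 and 277 CPM in papillae and 502, 436, 642, 195 and 346 CPM in organoids. It was called higher (log2 fold change 0.89, SE 0.26, adjusted p = 0.0106), although the organoids of pig 4 fell below all papillae.

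The organoids of pig 4 were the lowest organoid library for 19 of the 28 genes called higher, including ATP6AP2, LAMP2, NPC2, CTSB, PSAP, MAP1LC3B and GABARAPL1. How often that library was lowest over all genes was not counted, so this cannot be read as particular to these genes. Its TMM factor, 1.195, was the largest in this comparison. Without that library 28 of the 47 were called higher and 8 lower. ULK1, the kinase that starts autophagy, BECN1, a subunit of the lipid kinase that follows it, and MAP1LC3B, which coats the vesicle, were called higher, by 1.902-fold, 1.74-fold and 1.55-fold. GABARAPL1, a relative of MAP1LC3B, was called higher (log2 fold change 0.96, SE 0.36, adjusted p = 0.0346) but not in the fit paired by pig (adjusted p = 0.0961), by limma-voom (0.0979), nor without papilla 1, 2, 3 or 4 or the organoids of pig 1 or 3 (adjusted p 0.0521 to 0.0936). WIPI1 and UVRAG were not called.

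**Figure D2:**
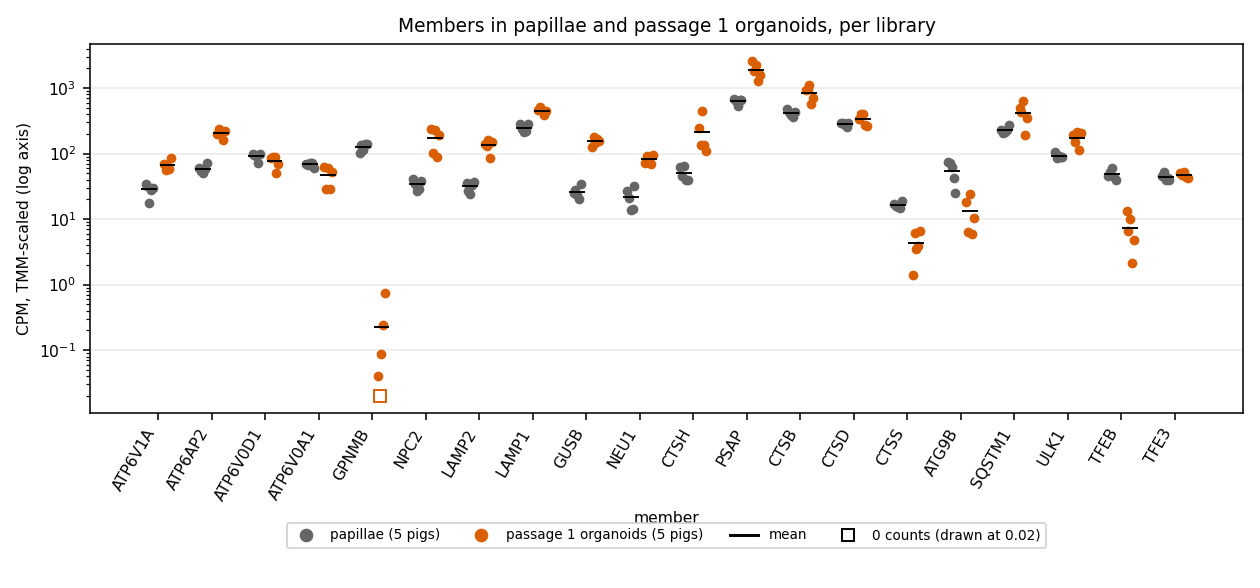
CPM (log axis) of 20 of the genes in each papilla library and each passage 1 organoid library, with black bars for means and an open square for 0 counts. GPNMB, TFEB and CTSS lie lower in every organoid library and NPC2, LAMP2, GUSB and PSAP higher, while CTSD, TFE3 and ATP6V0D1 overlap.

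A wider set of 147 further genes of these pathways, in 5 lists, gave 66 called higher and 27 lower among the 136 tested in this comparison, to be read against the 32.4% and 35.1% of all genes. Other hydrolases had 17 higher and 9 lower of 36. ACP5 and CTSK, enzymes known from osteoclasts and macrophages, fell 83.8-fold and 4.37-fold. Other pump genes had 5 higher and 2 lower of 11. ATP6V1B1, the B subunit form of specialised acid-secreting cells, fell from 16.4 ± 4.67 to 0.206 ± 0.195 CPM (log2 fold change -6.34, SE 0.54, adjusted p = 1.99e-06), in contrast to the rise of the common form ATP6V1B2. Other autophagy genes had 19 higher and 3 lower of 37, led by ATG12 at 3.36-fold higher. Membrane and sorting genes had 15 higher and 7 lower of 25. The ion channel TPCN1 was 3.53-fold higher and LAPTM5, known from blood cells, 21.9-fold lower. Nutrient-sensing genes had 10 higher and 6 lower of 27, with PRKAA1, a catalytic subunit of AMP-activated kinase, 3.35-fold higher.

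Leaving FGF10 out of LPM was followed by 4 small falls and no rise among the 46 genes tested. For rises the count of 0 also came from DESeq2 and limma-voom. At an unadjusted p under 0.05 edgeR's test gave 1 higher and 8 lower, beside 1676 of all 14262 genes in either direction. Among all 14262 genes tested, 0.582% were called higher and 1.2% lower. GPNMB had too few counts to be tested, with 0.321, 0.301 and 0.288 CPM in LPM and 0.150, 0.384 and 0.201 without FGF10. The median log2 fold change was -0.03 over the 46 genes and 0.00 over all genes. No member changed by 2-fold, and the pump, with 14 of 14 tested, had no call in either direction and none at an unadjusted p under 0.05, its log2 fold changes running from -0.08 to 0.07.

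CTSZ, a carboxypeptidase, showed the clearest fall. It had 60.3, 57.5 and 54.5 CPM in LPM and 46.5, 44.2 and 43.8 CPM without FGF10, with no overlap (log2 fold change -0.36, SE 0.05, adjusted p = 8.97e-05). WIPI1, which reads the lipid of the growing autophagosome, had 27.4, 29.5 and 28.1 CPM against 23.5, 24.7 and 23.3 (log2 fold change -0.25, SE 0.06, adjusted p = 0.0445). CTSH had 96.2, 97.6 and 95.9 CPM against 83.1, 86.5 and 89.1 (log2 fold change -0.16, SE 0.04, adjusted p = 0.0457). The fourth, GUSB, fell by 0.15 on the log2 scale (adjusted p = 0.0356). These groups did not overlap. The calls of WIPI1, CTSH and GUSB were fragile, while CTSZ lost its call in 1 of 13 alternatives. When all 16 libraries counted with the same annotation entered 1 edgeR fit, no gene of any kind was called (106 had an unadjusted p under 0.05), whereas DESeq2 on the 6 libraries alone called 218 genes. The wider fit takes its spread also from papillae and passage 1 organoids, so it cannot decide on falls this small. For genes averaging 10 to 30 counts, median variance over mean was 3.426 and 4.819 there. It was 1.13 in LPM and 1.23 without FGF10. Only 1 of the 4 was called without LPM library 1 or 2 or the first library lacking FGF10, and 2 without LPM library 3.

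Other well-expressed members stayed within narrow ranges. ATP6AP1, with the highest mean CPM in the pump, had 252, 237 and 236 CPM in LPM and 229, 239 and 235 CPM without FGF10 (adjusted p = 0.696). LAMP1 had 544, 555 and 528 CPM against 548, 517 and 542, and PSAP had 1915, 1809 and 1752 against 1807, 1884 and 1788. SQSTM1 had 454, 447 and 441 CPM against 407, 430 and 395, which did not overlap but was not called (log2 fold change -0.12, SE 0.04, adjusted p = 0.116, and 0.0342 without the second library lacking FGF10). Likewise CTSD, with 343, 323 and 329 CPM against 307, 312 and 318, did not overlap and was not called (log2 fold change -0.09, adjusted p = 0.339).

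CTSB had 934, 926 and 892 CPM in LPM and 864, 911 and 874 CPM without FGF10. TFEB had 8.23, 6.80 and 8.20 CPM against 9.38, 8.57 and 7.05, and TFE3 had 61.4, 60.1 and 58.9 against 58.4, 61.7 and 61.3. All 3 of these genes overlapped between the media. MCOLN1 had 17.3, 18.8 and 17.7 CPM against 18.9, 17.2 and 18.4. ATP6V1A had 64.8, 65.6 and 65.0 CPM against 67.7, 67.5 and 63.9, and ATP6V0D1 had 82.6, 82.6 and 78.0 against 82.3, 75.8 and 82.1. These overlapped too. Of the further pathway genes, 131 were tested, 1 was called higher and 2 lower, beside 0.582% and 1.2% of all genes. LAPTM4B rose by 0.17 on the log2 scale (adjusted p = 0.0149). PPT1, a thioesterase, fell by 0.24 (adjusted p = 0.0193), and GRN, the lysosomal growth factor progranulin, by 0.15 (adjusted p = 0.0346).

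CQ was accompanied by higher levels of 25 of the 47 genes and lower levels of 3, with 19 not called. The share of rises was largest among the membrane and cholesterol proteins, with 6 of 8, and the pump, with 9 of 14, and neither had a gene called lower. Hydrolases had 5 of 14 higher and 2 lower, and autophagy genes 5 of 11 higher and 1 lower. Among all 13827 genes tested, 23.1% were called higher and 24.8% lower. At least a 2-fold rise was called for 16 members, beside 9.63% of all genes, and at least a 2-fold fall for 2, beside 16.0%. The median log2 fold change was 0.53 over the 47 genes and -0.07 over all genes. Leaving out 1 library at a time gave 23 to 27 members called higher, fewest without LPM library 2 and most without LPM library 3, and 2 or 3 lower.

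**Figure D3:**
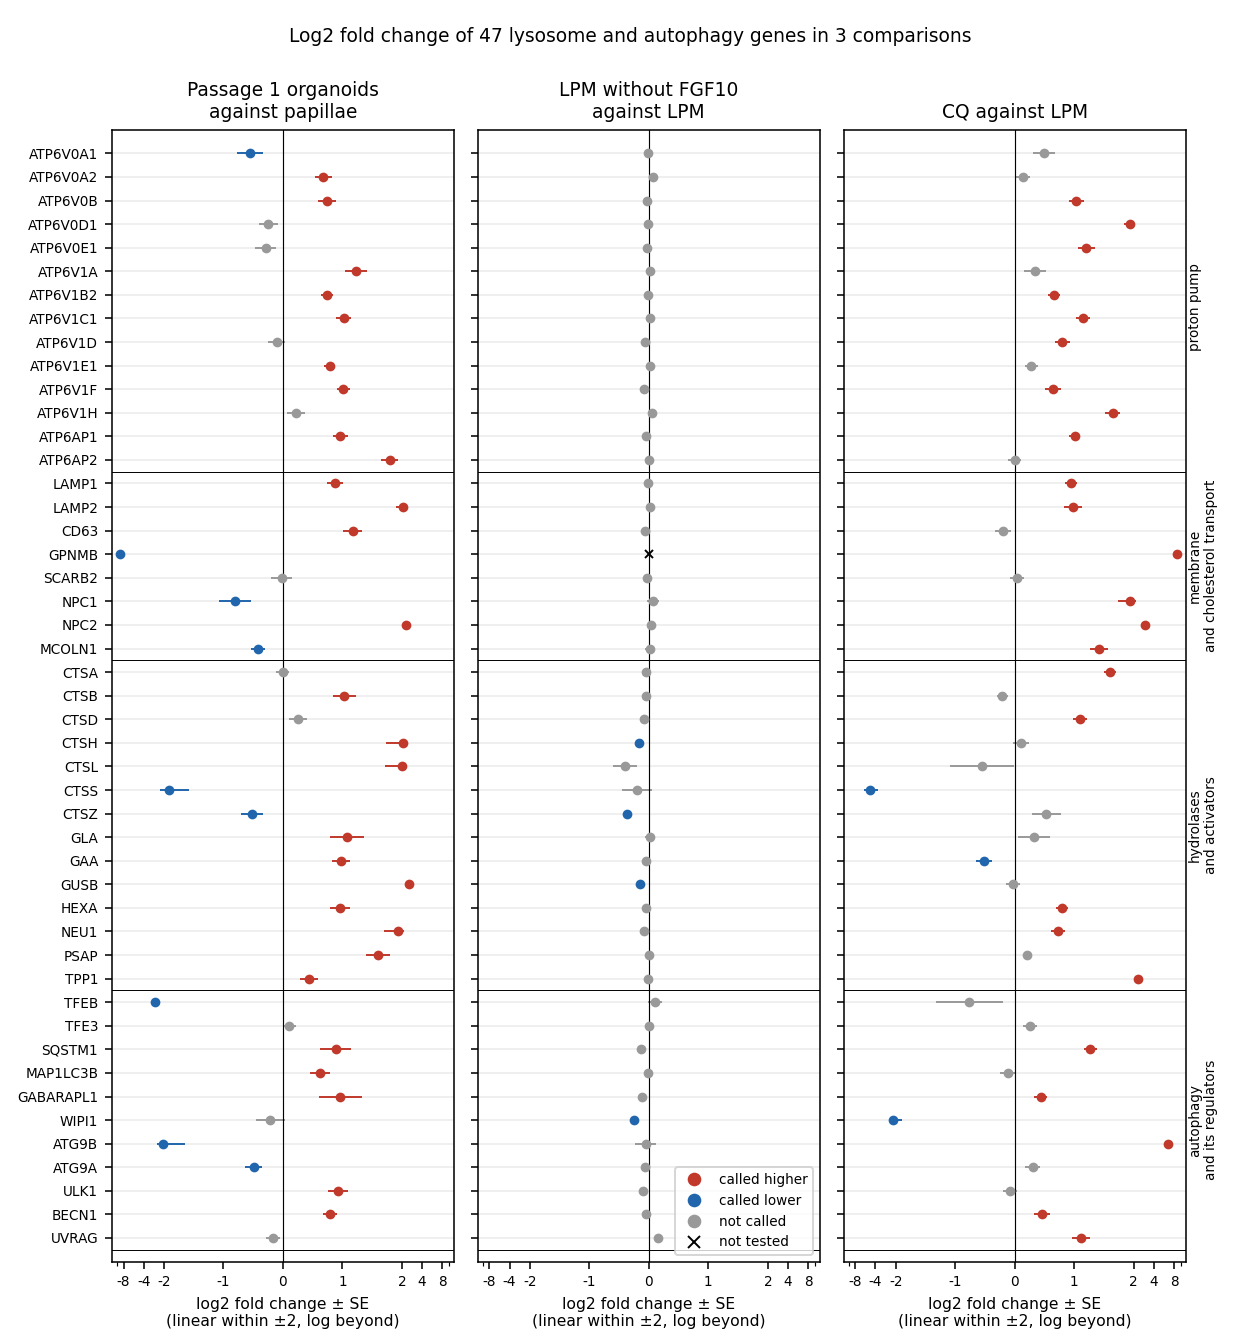
Log2 fold change with its standard error (horizontal axis, linear within ±2 and log beyond) of each of the 47 genes, grouped by role, in the 3 comparisons. Red points were called higher, blue lower and grey not called. The FGF10 panel stays near 0 and the CQ panel holds 25 red points of 47. The 14 pump genes all lie at or right of 0 there.

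GPNMB showed the largest change, in the opposite direction to that between papillae and organoids. It had 0.0511, 0.245 and 0.0811 CPM in LPM, on 8 counts in all, and 45.1, 68.1 and 51.6 CPM in CQ, on 2603 counts. The difference was 421-fold (log2 fold change 8.72, SE 0.37, adjusted p = 5.29e-07). Markers of macrophages and melanocytes were mixed or low beside it. The macrophage markers C1QA, C1QB, C1QC, CD163, TYROBP and VSIG4 and the melanocyte markers TYR and TYRP1 were at 0 in every LPM and CQ library, and MLANA was at 0 in CQ. Other myeloid markers, too low to be tested, had more counts in CQ, with MRC1 at 2 in LPM and 65 in CQ, ITGAM at 1 and 20, CSF3R at 0 and 16 and MS4A7 at 0 and 14. The 15 myeloid markers summed to 21.45 to 36.65 CPM in LPM and 9.03 to 20.7 in CQ, and the 5 melanocyte markers summed to 6.001 to 8.43 CPM in LPM and 0 to 0.948 in CQ. Of the 4 myeloid markers tested 2, AIF1 and CD14, were called lower and 1, CSF1R, higher, on 5 counts in LPM and 62 in CQ. Of the 2 melanocyte markers tested 1, DCT, was called lower. The 6 nerve and Schwann cell markers summed to 1.69 to 3.73 CPM in LPM and 15.75 to 24.5 in CQ, mostly NEFM, with SOX10 at 0 in CQ. The part of these cell types in the result was not tested.

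NPC2 had 90.7, 91.5 and 101 CPM in LPM and 715, 770 and 701 CPM in CQ, 7.73-fold higher (log2 fold change 2.95, SE 0.10, adjusted p = 1.79e-07). NPC1, lower in organoids than in papillae, rose 3.81-fold here, from 10.3 ± 1.74 to 39.4 ± 6.62 CPM (SD, n = 3 each, adjusted p = 6.69e-05), so that both cholesterol transporters were higher in CQ. MCOLN1 had 10.4, 11.03 and 11.1 CPM in LPM and 28.5, 27.7 and 30.6 in CQ, with no overlap (log2 fold change 1.42, SE 0.16, adjusted p = 0.000109). LAMP1 had 288, 272 and 320 CPM against 546, 589 and 559 (log2 fold change 0.95, SE 0.10, adjusted p = 6.88e-05), and LAMP2 rose by about as much, 0.98 on the log2 scale. CD63 and SCARB2 overlapped between the media and were not called.

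All 14 pump genes had a log2 fold change of 0 or above, from 0.00 for ATP6AP2 to 1.94 for ATP6V0D1. ATP6V0D1 had 43.1, 40.9 and 47.9 CPM in LPM and 164, 171 and 173 CPM in CQ, 3.85-fold higher (SE 0.11 on the log2 scale, adjusted p = 2.26e-06). ATP6V1H, a V1 subunit that regulates the pump's activity, rose 3.13-fold (adjusted p = 1.03e-05), and ATP6V0E1 and ATP6V1C1 rose 2.31-fold and 2.22-fold. ATP6V0B, which belongs to the proton-carrying ring, and ATP6AP1 both rose by just over 2-fold, and ATP6V1B2, ATP6V1D and ATP6V1F by 1.56-fold to 1.74-fold. The catalytic ATP6V1A had 60.8, 52.7 and 36.5 CPM in LPM and 66.6, 66.3 and 56.4 in CQ, with overlap and no call (log2 fold change 0.34, SE 0.19, adjusted p = 0.168). ATP6AP2, with the highest mean CPM of the pump genes in this experiment, had 328, 309 and 357 CPM in LPM and 309, 366 and 320 in CQ. ATP6V0A2 overlapped between the media and was not called. ATP6V0A1 and ATP6V1E1 did not overlap but were not called either (log2 fold change 0.49 and 0.28, adjusted p = 0.0587 and 0.0582). Of 14 alternatives, 4 called ATP6V0A1 and 6 called ATP6V1E1.

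Among hydrolases the rises were in TPP1, CTSA, CTSD, HEXA and NEU1. TPP1, a tripeptidase, rose 4.96-fold from 34.15 ± 5.95 to 169 ± 12.2 CPM (SD, n = 3 each, adjusted p = 5.07e-06), and CTSA 3.03-fold (adjusted p = 5.59e-06). CTSD had 87.8, 96.2 and 111 CPM in LPM and 205, 226 and 201 CPM in CQ, 2.14-fold higher with no overlap (adjusted p = 9.45e-05). CTSB went the other way without being called, with 629, 661 and 703 CPM against 551, 584 and 589 (log2 fold change -0.21, SE 0.09, adjusted p = 0.0786). PSAP, with 1440, 1494 and 1571 CPM against 1694, 1757 and 1777, did not overlap and lay at the edge of the threshold (log2 fold change 0.22, SE 0.08, adjusted p = 0.0503, and 0.0162 by DESeq2).

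GAA, the glucosidase that degrades glycogen, had 65.3, 68.4 and 69.5 CPM in LPM and 51.1, 51.9 and 39.5 CPM in CQ, a fall without overlap (log2 fold change -0.51, SE 0.14, adjusted p = 0.0129). CTSS was near the limit of detection, with 92 counts over the LPM libraries and 2 over the CQ libraries, a ratio of 33.5 with a 95% interval of 9.02 to 281 that covers counting error only. It was called lower (adjusted p = 0.00932), but not without the second or the third LPM library (adjusted p = 0.0624 and 0.0704). GUSB and CTSH, which led the rise in passage 1 organoids, overlapped between LPM and CQ and were not called, nor were CTSL, CTSZ and GLA. The row CTSV, also looked at after its values were seen, went from 1427 ± 195 CPM in LPM to 759 ± 74.4 in CQ (log2 fold change -0.91, SE 0.12, adjusted p = 0.00032).

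ATG9B had 0.664, 1.03 and 0.527 CPM in LPM, on 47 counts, and 50.2, 72.3 and 68.1 CPM in CQ, on 3008 counts. This 86.1-fold difference (log2 fold change 6.43, SE 0.27, adjusted p = 5.6e-07) was second only to that of GPNMB among the 47 genes. Its relative ATG9A was not called (log2 fold change 0.30, SE 0.13, adjusted p = 0.09). SQSTM1 had 259, 274 and 314 CPM in LPM and 667, 669 and 714 CPM in CQ, 2.42-fold higher (log2 fold change 1.27, SE 0.10, adjusted p = 1.6e-05), and UVRAG, a partner of BECN1 in vesicle maturation, rose 2.16-fold.

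BECN1 and GABARAPL1 rose by 0.46 and 0.44 on the log2 scale (adjusted p = 0.0196 and 0.0102), but BECN1 was not called without LPM library 1 or 2 or CQ library 2 (adjusted p 0.0575 to 0.101), nor GABARAPL1 without LPM library 2 (0.0575). With no low-count filter BECN1 lost its call (adjusted p = 0.0554), and with all 22 libraries in 1 fit GABARAPL1 did (0.374). WIPI1 fell, from 12.1, 12.8 and 13.6 CPM in LPM to 2.22, 3.78 and 2.27 in CQ (log2 fold change -2.21, SE 0.31, adjusted p = 0.000449). MAP1LC3B and ULK1 overlapped between the media and were not called. TFEB had 4.24, 4.90 and 5.35 CPM in LPM and 0.874, 3.91 and 3.73 CPM in CQ, without overlap or a call (log2 fold change -0.77, SE 0.56, adjusted p = 0.294). TFE3 had 41.5, 46.1 and 41.5 CPM against 52.5, 51.9 and 49.9, likewise without overlap and not called (log2 fold change 0.26, SE 0.12, adjusted p = 0.0992).

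**Figure D4:**
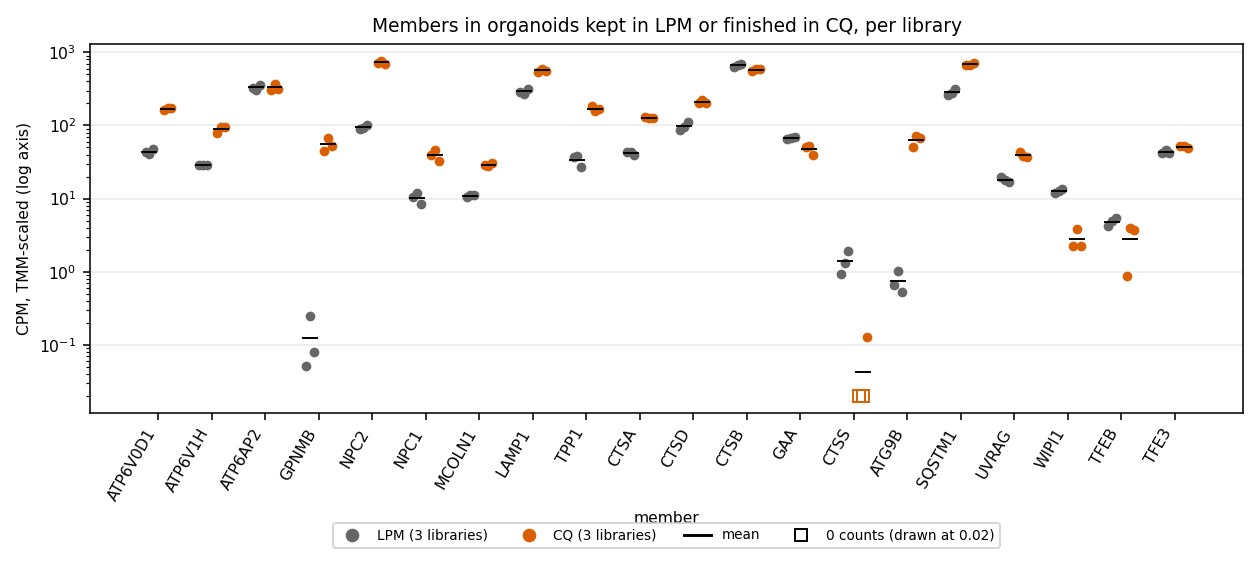
CPM (log axis) of 20 of the genes in each of the 3 LPM and 3 CQ libraries, with black bars for means and open squares for 0 counts. GPNMB and ATG9B stand more than an order of magnitude higher in every CQ library, NPC2, TPP1 and ATP6V0D1 clearly higher, and WIPI1 and CTSS lower, while ATP6AP2 overlaps.

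Of the further pathway genes, 131 were tested in the CQ comparison, with 52 called higher and 30 lower, beside 23.1% and 24.8% of all genes. Nutrient-sensing genes had 12 higher and 2 lower of 27. RRAGC, a GTPase that brings the growth kinase mTORC1 to the lysosome, rose 3.96-fold, and LAMTOR1, its anchor on the lysosome, 2.73-fold. FLCN, a regulator of RRAGC looked at after its values were seen, rose 2.33-fold, from 73.3 ± 15 to 171 ± 20.1 CPM (adjusted p = 0.00035). Of other genes looked at in that way, RRAGD, a relative of RRAGC, was not called (adjusted p = 0.704), and CD68, a lysosomal glycoprotein known from macrophages, was 2.46-fold lower (adjusted p = 8.93e-05). Other pump genes had 4 higher and 2 lower of 10, with TCIRG1, another a subunit, 2.29-fold higher and ROGDI 2.25-fold lower. Membrane and sorting genes had 8 higher and 4 lower of 23. CLCN7, the chloride exchanger of lysosomes, rose 3.71-fold, whereas TPCN1 fell 15.7-fold, from 225 ± 25.5 to 14.3 ± 1.12 CPM (adjusted p = 2.03e-07).

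Other hydrolases were close to evenly split, with 14 higher and 12 lower of 34. The mannosidases MANBA and MAN2B1 rose 4.02-fold and 2.52-fold, and the esterase SIAE and the cathepsin CTSC fell 6.21-fold and 2.71-fold. Other autophagy genes had 14 higher and 10 lower of 37. RAB7A, which drives fusion with lysosomes, and GABARAP rose 2.23-fold and 1.94-fold, while the mitophagy receptors BNIP3 and BNIP3L fell by 3.46 and 2.04 on the log2 scale. Over the same libraries the 7 taste cell markers summed to 514 to 551 CPM in LPM and 23.1 to 36.1 in CQ, mostly KRT20 in LPM (504 ± 18.9 CPM) and TAS1R3 in CQ (19.7 ± 3.09, beside 18.9 ± 4.13 in LPM). The labels name mature taste cells for all these libraries, and GNAT3 had 30 counts in LPM and 0 in CQ while PLCB2 had 4 and 8. Of 6 epithelial markers 3 were called lower (TP63, KRT18 and EPCAM) and 1, KRT8, higher. TP63, a marker of basal epithelium, had 136 ± 9.5 CPM in LPM and 27.7 ± 3.93 in CQ, while KRT5, also a basal marker, was not called, with 1912 ± 187 and 2201 ± 163 CPM. The part of a change in epithelial cell state or mixture in the results for the 47 genes was not tested.

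The tissue and CQ comparisons share no library, so the calls can be set side by side. Over all genes tested in both, 20.4% of those higher in organoids, 24.3% of those lower and 25.1% of those not called were higher in CQ. Of the 28 genes higher in passage 1 organoids than in papillae, 14 were also higher in CQ than in LPM, 13 were not called and 1, GAA, was lower. The 14 were ATP6V0B, ATP6V1B2, ATP6V1C1, ATP6V1F, ATP6AP1, LAMP1, LAMP2, NPC2, HEXA, NEU1, TPP1, SQSTM1, GABARAPL1 and BECN1. Of the 9 genes lower in organoids, 4 were higher in CQ, namely GPNMB, NPC1, MCOLN1 and ATG9B, 1, CTSS, was lower and 4 were not called. Of the 10 genes not called between tissue and organoids, 7 were higher in CQ, among them ATP6V0D1, ATP6V1H, CTSA and CTSD. SCARB2 and TFE3 were called in none of the 3 comparisons.

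On the scale over all 22 libraries, ATG9B stood at 59.6 ± 23.7 CPM in papillae and 63.6 ± 11.9 in CQ, with 13.6 ± 8.24 CPM in passage 1 organoids between them and the other media below. MCOLN1 stood at 30.4 ± 1.32 CPM in papillae and 28.9 ± 1.57 in CQ. GPNMB in CQ, at 55.0 ± 11.9 CPM, stayed below papillae, at 136 ± 17 CPM. TFEB, in contrast, stood at 52.2 ± 9.1 CPM in papillae and 2.84 ± 1.71 in CQ, and CTSS at 17.6 ± 1.765 and 0.0423 ± 0.0733 CPM. These values come from experiments with different kits and days and were not tested against each other.

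**Figure D5:**
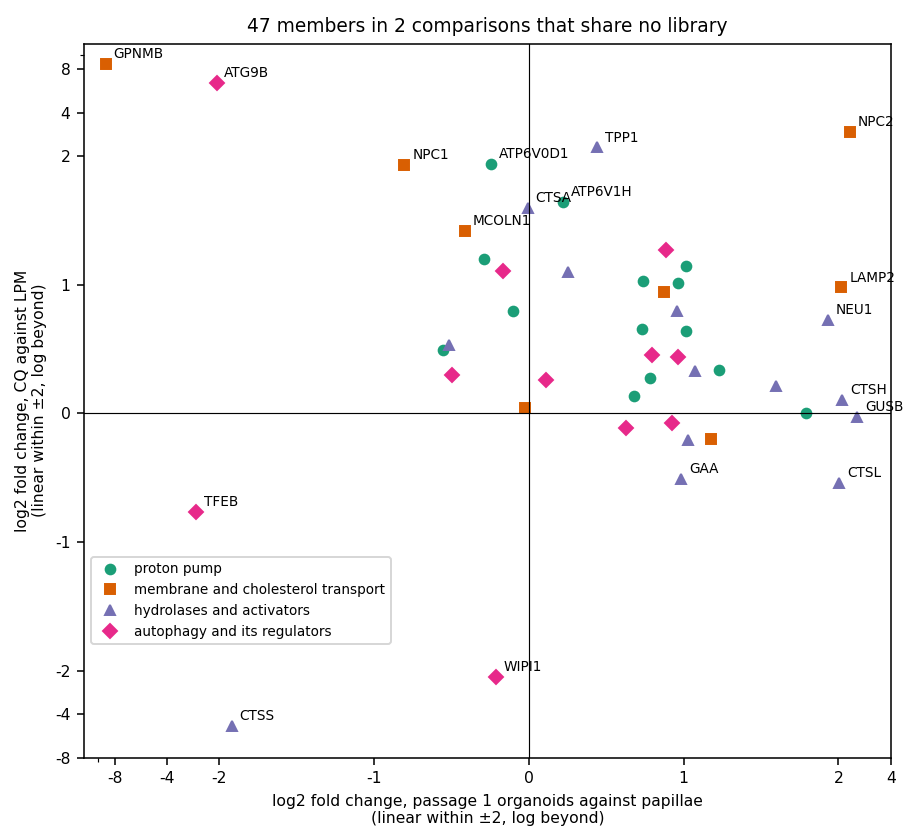
Log2 fold change of each of the 47 genes between passage 1 organoids and papillae (horizontal) and between CQ and LPM (vertical), both linear within ±2 and log beyond, with symbols by role. GPNMB, ATG9B, NPC1 and MCOLN1 lie at upper left, NPC2 and LAMP2 at upper right, and the fitted value of CTSS in CQ rests on 2 counts.

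The LPM libraries of the CQ experiment differed from LPM libraries elsewhere. In these genes, chosen with earlier results of these data known, they more often lay below, and less often above, than in genes at large. On the same scale, all 3 lay below all 8 other LPM libraries (passage 1 organoids and LPM of the FGF10 experiment) for 17 of the 47 genes, beside 18.5% of the 17624 genes on that scale. They lay above all 8 for 2, ATP6V1E1 and ATP6AP2, beside 14.3% of genes, and overlapped with them for 28. CTSD had 102 ± 13.2 CPM there against 339 ± 11.1 in LPM of the FGF10 experiment, a ratio of 3.33, and CTSZ, with 11.1 ± 2.23 against 58.7 ± 3.24 CPM, a ratio of 5.27. CTSD in CQ, at 211 ± 13.4 CPM, thus rose above its own LPM libraries while staying below those of the FGF10 experiment. The other genes called higher in CQ among the 17 were ATP6V0D1, ATP6V1H, ATP6AP1, LAMP1, MCOLN1, CTSA, NEU1, TPP1 and ATG9B. In CQ, LAMP1, NEU1 and ATP6AP1 had 565, 84.0 and 281 CPM, against 554, 76.6 and 247 in LPM of the FGF10 experiment. The rest of those named stood further above that LPM, such as ATP6V0D1 with 169.5 against 82.8 CPM. The experiments cannot be told apart from their annotation, counting version and time, and no test was made.

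Strand was ignored in counting, so reads of genes that share exon bases on opposite strands enter both counts. The shared bases given here are those of the annotation used outside the CQ experiment. Of the 47 genes, SQSTM1 shares 17.6% of its exon bases with MRNIP, PSAP 15.5% with CDH23, CTSA 18.8% with NEURL2 and 9.71% with PLTP, CD63 13.9% with LOC106510300, and WIPI1 4.24% with ARSG, while NPC1 shares 1.141% with C6H18orf8, GAA 2.71% with LOC110255946 and CTSZ 0.212% with NELFCD. For the 5 named first and GAA, the partner counts were smaller than those of the gene itself in all 6 groups. For SQSTM1 they came to 16.8 to 26.1% of its counts, and for CTSA with PLTP to 9.81 to 40.5%. Partner counts exceeded the gene's own for NPC1, at 101 to 165% of its counts, and for CTSZ, at 242 to 1031%. C6H18orf8 had 1091 counts in LPM of the CQ experiment and 2169 in CQ, beside 660 and 1859 for NPC1. The levels of all 8 genes are uncertain to an extent these files do not give.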

How the data were processed

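RNA was sequenced from 22 pig libraries in 6 groups. The deposited files give raw counts, that is, how many read pairs the authors assigned to each gene. Per the file headers this was done with featureCounts 2.0.3 for 16 libraries and 2.0.6 for the other 6, those of the CQ experiment. Strand was ignored, pairs over several genes counted for each, and pairs mapping to several places were not counted, also per the file headers. STAR 2.7.10b, FastQC 0.11.9, MultiQC 1.14 and DESeq2 are listed in the submitters' processing notes. The sources used here do not say if libraries were directional. The files of the CQ experiment hold 1 unnamed entry, which was left out.

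Each comparison was fitted on its own groups in R 4.3.3 by the quasi-likelihood test of edgeR 4.0.16, after TMM scaling and removal of low counts by filterByExpr, with p adjusted by Benjamini-Hochberg across all tested genes and a threshold of 0.05. Alternatives were library size alone, DESeq2 1.42.0, limma-voom (limma 3.58.1, also with group weights), no low-count filter, a 1 CPM filter, scaling genes without markers of other cell types, wider fits, the replicate block and leaving out each library. The scripts were tested on simulated data. Pig numbers pair papilla and organoids by animal, but the main tissue fit left this pairing out. Deviations of same-pig libraries correlated at 0.036 to 0.11 over genes, and 4 of 5 pigs correlated best with their own number. Depth gives intervals for counting error only.

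The members and lists were chosen with earlier results of these data known. Values per library are given for the 3 called genes with the largest rise and the 3 with the largest fall (average log2 CPM of at least 2), for the gene of highest mean CPM in each role, and always for CTSD, CTSB, LAMP1, GPNMB, SQSTM1, TFEB, TFE3, MCOLN1, ATP6V1A and ATP6V0D1. Further pathway genes were named by smallest p, up to 2 per list and direction. Some genes that this would name are not reported here. CTSV, MITF, FLCN, RRAGD and CD68 were picked out after their values were seen. Coordinates are those of the files, which use Sscrofa11.1.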

Additional observations from a re-analysis of the deposited data

Results flagged for a closer look

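In 7 of the 94 groups of 5 libraries examined, a single library stood apart from its group by Dixon's gap test, where chance alone marks about 1 in 20 groups. The gap to the nearest library, as a share of the group's range, is given for each. In papillae, pig 4 was lowest for ATP6V0D1 (71.1 CPM, gap 0.72), pig 3 was lowest for PSAP (531 CPM, gap 0.8) and pig 5 was highest for SQSTM1 (277 CPM, gap 0.714). In passage 1 organoids, pig 5 was highest for CD63 (417 CPM against at most 311 in the others, gap 0.892). The organoids of pig 2 were highest for the 3 hydrolases CTSA (99.5 CPM, gap 0.824), GAA (156 CPM, gap 0.747) and HEXA (169 CPM, gap 0.737). None of these libraries decided the call of the gene concerned.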

How the results depend on the processing

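The numbers of genes called kept within 1.5 times of the reported ones under every alternative run, with these exceptions. With library size alone, 4 genes rather than 9 were called lower in organoids than in papillae. For genes lower without FGF10, reported as 4, library size alone gave 1, DESeq2 gave 2, all 16 libraries in 1 fit gave 0, the replicate block gave 1, and leaving out 1 library at a time gave 1 to 3. No called gene reversed its direction. A call held under every alternative for 31 of 37 called genes in the tissue comparison, 0 of 4 for FGF10 and 25 of 28 for CQ. The FGF10 call of CTSZ was lost only with all 16 libraries in 1 fit. The causes were not tested.

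Replicate numbers of the media experiments are shared only as numbers. Same-numbered libraries correlated in their deviations at -0.046 to 0.047 for FGF10 and -0.008 to 0.021 for CQ, and 1 of 3 numbers in each experiment correlated best with its own. With the replicate block, the FGF10 comparison kept 1 gene called lower and the CQ comparison had 25 higher and 3 lower. In the tissue comparison, pairing by pig gave 27 higher and 9 lower, and GABARAPL1 was the 1 call lost.

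Low counts limit CTSS, CTSL, and GPNMB in organoids in LPM, and library spread limits low genes in CQ.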
